A study of Mus musculus with 9 samples.

Results

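The genes described here are 40 genes whose expression marks the endothelium, the cell layer that lines blood and lymph vessels, out of 32114 genes measured in mouse lung. Of them, 31 that belong to neither of the sets named next are called pan-endothelial here. The name does not mean that each is expressed in all lung endothelial cells. A further 5 (Car4, Ednrb, Gpihbp1, Aplnr and Apln) mark capillaries, and 4 (Lyve1, Prox1, Flt4 and Mmrn1) mark lymphatic endothelium. Each symbol was found once, and 40 of the 40 were expressed above the minimum used for testing, a mean of 0.5 FPKM over all libraries. FPKM relates the fragments of a gene to its transcript length and to the depth of the library, so levels can be compared between genes.

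Polyadenylated RNA of whole lung was sequenced from 12-week-old mice in 3 groups with 3 libraries each. LPS plus PD mice received lipopolysaccharide (LPS, the endotoxin of Gram-negative bacteria) at 50 µg per mouse and breathed an aerosol of PD at 10 mg/mL, where PD was read as the panaxadiol of the study's title, a ginseng triterpene. LPS mice received the same dose of LPS, and control mice received sterile saline. The labels give no strain, genotype or interval between treatment and sampling. The design names 6 animals a group, and the labels do not say that each library came from a separate animal, so p-values measure the spread between these libraries. The mice are labelled female, but the X-inactivation transcript Xist was at most 0.0895 FPKM and the Y-linked gene Ddx3y at 15.4 to 31.9 FPKM in the 9 libraries. Depth, recovered from the step size of the deposited values, was 15.2 to 19.2 M reads a library. LPS replicate 2 stands apart: its highest correlation with another library was 0.914, against 0.971 or more for each of the other 8. Values of a group are given in the order of replicates 1, 2 and 3.

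In the lung, capillaries wrap the air sacs and make endothelium one of the most abundant cell types. Endothelial identity is held by transcription factors of the ETS (Erg, Fli1), SOXF (Sox7, Sox17, Sox18) and forkhead (Foxf1) families, which drive junction proteins, receptors and surface enzymes of the vessel wall. Mouse lung capillaries contain general capillary cells, marked by Gpihbp1 and Aplnr, and aerocytes, the thin gas-exchange cells marked by Car4, Ednrb and Apln. Lymphatic endothelium is set by Prox1 and grows under VEGFR3, the product of Flt4.

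Promoters are shown for members whose values are described below, since motifs of these factor families can be looked for in them. The RefSeq promoter table (GRCm38.p6) held an entry for 22 of the 40 members, with 28 promoters in all, and the 250 bases before each transcription start are used. Searched on both strands, the ETS letters GGAAGT (reverse ACTTCC) were in 6 of the 28 member promoters (21.4%), against 19.7% of 32851 promoters in the table. The SOX letters AACAAT (reverse ATTGTT) were in 4 of 28 (14.3%), against 9.42%. The forkhead letters GTAAACA (reverse TGTTTAC) were in 0 of 28, against 3.17%. A match describes letters and is no binding site, and in the sequences capitals mark it. Eng (chr2:32646345-32646594, plus strand) and Nostrin (chr2:69135550-69135799, plus strand) hold the ETS letters, starting 53 and 57 bases before the start site. Emcn (chr3:137340828-137341077, plus strand) holds the SOX letters, starting 50 bases before it, and its last 11 bases lie inside the Ensembl gene. Prx (chr7:27499074-27499323, plus strand) holds none of the 3 motifs.
Eng: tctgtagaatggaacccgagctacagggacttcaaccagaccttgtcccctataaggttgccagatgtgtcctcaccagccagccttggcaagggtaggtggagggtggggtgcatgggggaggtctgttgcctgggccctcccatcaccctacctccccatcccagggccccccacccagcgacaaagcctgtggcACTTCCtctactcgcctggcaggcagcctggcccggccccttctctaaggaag
Nostrin: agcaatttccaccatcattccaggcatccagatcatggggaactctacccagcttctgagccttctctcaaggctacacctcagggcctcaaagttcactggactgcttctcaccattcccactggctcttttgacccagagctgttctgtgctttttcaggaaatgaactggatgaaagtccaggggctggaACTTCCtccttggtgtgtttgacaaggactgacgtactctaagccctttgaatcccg
Emcn: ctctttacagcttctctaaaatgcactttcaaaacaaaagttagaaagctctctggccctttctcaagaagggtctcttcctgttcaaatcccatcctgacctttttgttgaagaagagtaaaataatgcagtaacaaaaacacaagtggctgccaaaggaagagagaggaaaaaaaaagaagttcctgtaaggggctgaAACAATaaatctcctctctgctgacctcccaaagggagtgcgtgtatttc
Prx: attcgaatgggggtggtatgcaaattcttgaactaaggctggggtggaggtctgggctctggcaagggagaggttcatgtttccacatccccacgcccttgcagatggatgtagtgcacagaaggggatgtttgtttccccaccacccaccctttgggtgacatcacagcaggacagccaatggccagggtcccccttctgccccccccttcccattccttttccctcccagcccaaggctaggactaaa

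Endothelial transcripts were detected in every library. Mean levels in control libraries ran from 269 ± 97.7 FPKM for Tmem100, a membrane protein downstream of BMP signalling, to 0.688 ± 0.114 FPKM for Prox1 (SD, n = 3). Tmem100 was followed by Plvap, which forms the diaphragms of fenestrae and caveolae, at 257 ± 76.7 FPKM, and Ace, the angiotensin-converting enzyme of the capillary surface, at 163 ± 55.5 FPKM. The gap between Tmem100 and Plvap was smaller than either SD, and that between Plvap and Ace was larger than either. Among capillary members Car4, a carbonic anhydrase of the cell surface, was highest at 81.8 ± 23.9 FPKM and Apln, the ligand of the Aplnr receptor, lowest at 17.5 ± 8.12 FPKM. The lymphatic members were low apart from Lyve1, a hyaluronan receptor, at 51.2 ± 13.4 FPKM. Flt4 was at 5.19 ± 1.39 FPKM and Mmrn1, a secreted multimerin that platelets also make, at 2.83 ± 0.629 FPKM. Defining endothelial genes outside the list were present as well: Cdh5, the endothelial cadherin, had 254, 243 and 247 FPKM in the LPS plus PD libraries, 275, 133 and 247 FPKM in the LPS libraries, and 214, 83.2 and 169.7 FPKM in the control libraries.

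Within the control and the LPS group, most of the 40 genes differed between libraries in the same way. Control replicate 2 was the lowest control library for 39 of the 40 genes, with Prox1 the exception. LPS replicate 2 was the lowest LPS library for 36, with Fli1, Robo4, Lyve1 and Prox1 the exceptions. Each of these libraries was the lowest of all 9 for 19 genes. The LPS plus PD group had no such library: its replicates 1, 2 and 3 were the lowest of the group for 7, 19 and 14 genes. The summed level of the 31 pan-endothelial genes was 3419.8, 3223 and 3182 FPKM in LPS plus PD replicates 1 to 3, 3314, 1725 and 3749 FPKM in LPS replicates 1 to 3, and 2989, 1657 and 2954 FPKM in control replicates 1 to 3. The 2 low libraries sat in different groups, and the other 7 were each at or above the 2954 FPKM of control replicate 3. In bulk samples fewer cells of a type and less RNA per cell cannot be told apart.

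**Figure D1:**
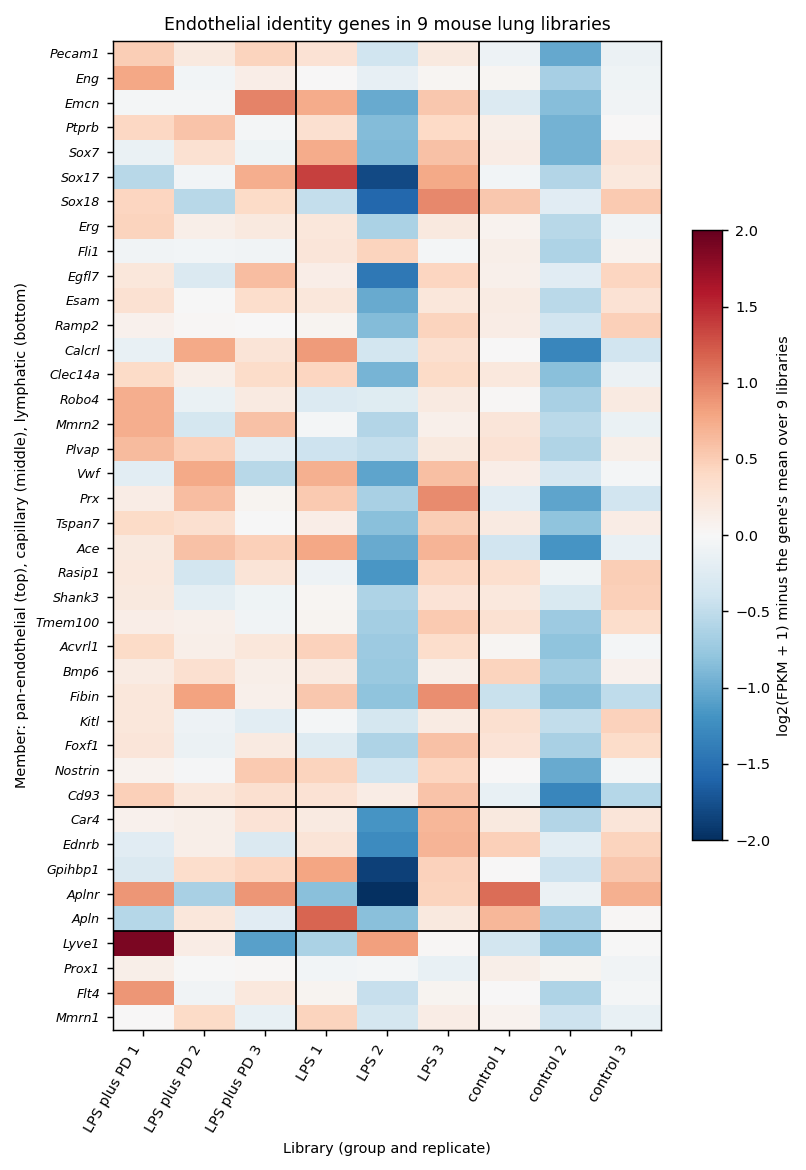
Levels of the 40 genes (rows) in the 9 libraries (columns), each as log2(FPKM + 1) minus the gene's mean over the libraries. LPS replicate 2 and control replicate 2 are low over most pan-endothelial and capillary rows, and LPS plus PD replicate 1 is high for Lyve1 and Flt4.

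Markers of other cell types differed between these libraries as well. The summed level of 10 alveolar type 1 markers was 2098, 2529.6 and 1999.9 FPKM in LPS plus PD, 2150.5, 1224 and 2248 FPKM in LPS, and 1964, 1215 and 1803 FPKM in control libraries, so the same pair of libraries was low. The summed level of 10 leukocyte markers was 325, 276 and 398 FPKM in LPS plus PD, 252, 1060.4 and 364 FPKM in LPS, and 156, 116 and 166 FPKM in control libraries, highest in LPS replicate 2. For 10 of these 10 markers both LPS groups lay above control without overlap, and 0 were at or near 0. Among all genes tested, 13.3% lay above and 20.7% below control in LPS plus PD, and 13.8% and 23.8% in LPS. The summed level of 10 airway markers was 12201, 14450.0 and 23418 FPKM in LPS plus PD, 30377, 5147 and 14638 FPKM in LPS, and 29482, 49310.0 and 24027 FPKM in control libraries, lowest in LPS replicate 2 and highest in control replicate 2, and 7 of the 10 lay below control without overlap in each LPS group. The 10 heart muscle markers summed to 222, 239 and 161 FPKM in LPS plus PD, 89.5, 96.7 and 148 FPKM in LPS, and 602, 1038 and 248.8 FPKM in control libraries, all 3 controls above the other 6, with 8 of the 10 genes expressed above the minimum for testing. The part of these cell types in the endothelial values was not tested.

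**Figure D2:**
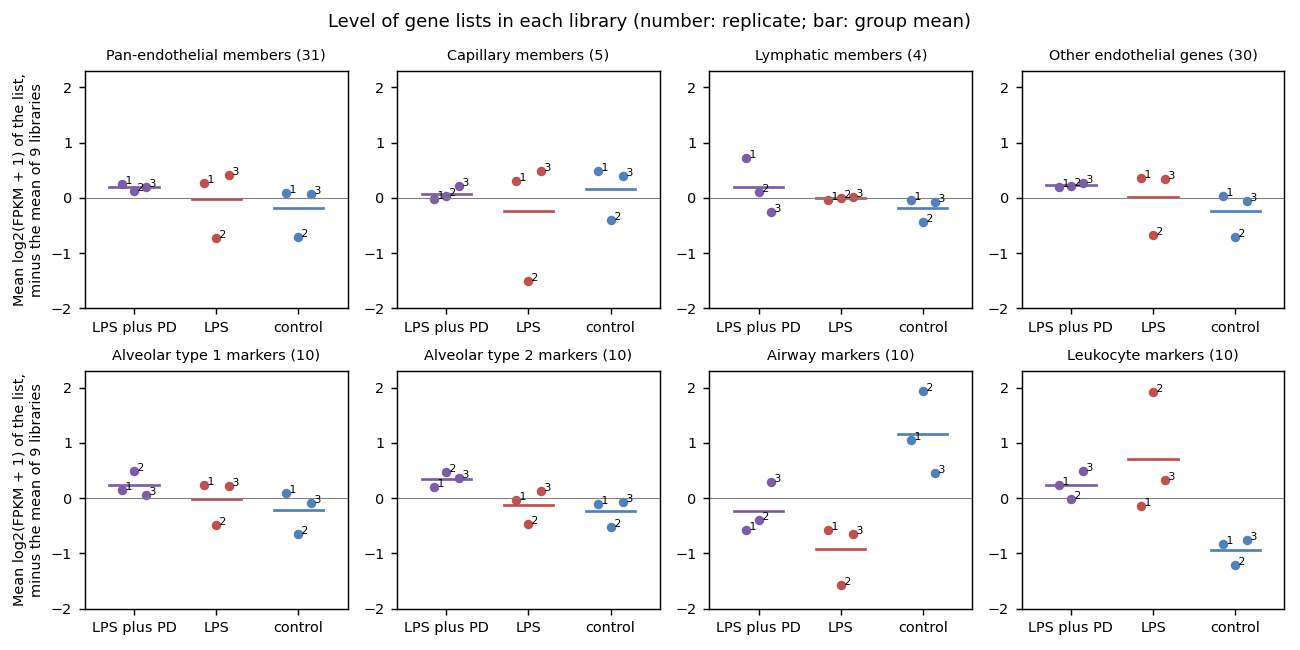
Mean level of each group of genes per library, as log2(FPKM + 1) relative to the mean over all 9 libraries. Points are libraries, with LPS plus PD left of LPS and LPS left of control, and bars are group means. LPS replicate 2 (-0.72) and control replicate 2 (-0.70) lie below the other 7 libraries in the pan-endothelial panel.

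The comparison of LPS with control asks how the endotoxin changed endothelial transcripts. None of the 40 genes passed the threshold: 0 of 40 had an adjusted p under 0.05 in limma (Benjamini-Hochberg over the 16227 genes tested), where 3.78% of all tested genes passed. At an unadjusted p under 0.05 there was 1 gene, Cd93 (2.5% of the members), against 29.9% of all genes tested. By libraries, Cd93 alone lay with its 3 LPS libraries above the 3 controls, where 13.8% of all genes did, and 0 of 40 lay below, where 23.8% did. The median difference in log2(FPKM + 1) was 0.11 over the 40 genes, 0.16 over the pan-endothelial, -0.25 over the capillary and 0.17 over the lymphatic genes, beside -0.11 over all genes tested. These medians depended on single libraries. The pan-endothelial median turned to -0.08 when control replicate 2 was left out, to -0.07 when LPS replicate 3 was, and to -0.01 when LPS replicate 1 was. It was 0.40 without LPS replicate 2. Scaled to 30 other endothelial genes, which takes out any shift shared with them, it was -0.089. With median-ratio scaling it was 0.30, with quantile normalization 0.18 and with equal FPKM totals 0.35. The lymphatic median lay between 0.01, without control replicate 2, and 0.29, without control replicate 1. Of the 40 differences 23 were above and 17 below 0, where 39.9% of all genes tested were above 0. The 95% intervals of the 40 genes reached 0.29 to 1.65 to either side, with a median of 0.83. For a typical member a smaller difference leaves 0 inside the interval. The adjusted test asks for more than an interval free of 0: Cd93, at 1.01, had an adjusted p of 0.0676 in limma.

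Cd93 is a C-type lectin-like receptor of endothelial and myeloid cells that binds the matrix protein Mmrn2. It had 157, 132 and 141 FPKM in the LPS plus PD libraries, 138, 125 and 168 FPKM in the LPS libraries, and 102, 45.0 and 75.9 FPKM in the control libraries. All 6 libraries that received LPS lay above all 3 controls. The LPS minus control difference was 1.01 (95% interval 0.38 to 1.63), 1.93-fold between the means, with an adjusted p of 0.0676 in limma. Without LPS replicate 2, the library with the highest summed leukocyte markers, it was 1.10 (adjusted p = 0.0753 in limma). Without control replicate 2 it was 0.69. The pan-leukocyte gene Ptprc had 10.1, 7.75 and 10.6 FPKM in the LPS plus PD libraries, 8.45, 47.2 and 10.6 FPKM in the LPS libraries, and 4.70, 2.52 and 4.88 FPKM in the control libraries. LPS replicate 2 was the highest library for Ptprc. For Cd93 the same library was the lowest of the LPS group in deposited FPKM, but the highest of the group when Cd93 was scaled to 30 other endothelial genes, at 106, 202 and 131 FPKM in the LPS libraries. The part of leukocytes in the Cd93 level was not tested. Mmrn2 itself was lower in level and had 25.9, 11.8 and 23.5 FPKM in the LPS plus PD libraries, 14.8, 9.81 and 16.4 FPKM in the LPS libraries, and 18.3, 10.2 and 13.9 FPKM in the control libraries, with overlapping groups.

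Ace, Prx and Fibin were high in 2 of the 3 LPS libraries. Ace had 267, 349 and 322 FPKM in the LPS plus PD libraries, 397, 115 and 373 FPKM in the LPS libraries, and 177, 102 and 209.9 FPKM in the control libraries. Prx, the scaffold periaxin known from myelinating Schwann cells, had 44.7, 62.7 and 42.0 FPKM in the LPS plus PD libraries, 58.6, 25.4 and 79.0 FPKM in the LPS libraries, and 34.6, 19.0 and 30.8 FPKM in the control libraries. Fibin, a secreted factor first described in zebrafish fin development, had 32.4, 49.0 and 29.6 FPKM in the LPS plus PD libraries, 40.5, 15.3 and 53.3 FPKM in the LPS libraries, and 20.1, 15.1 and 19.2 FPKM in the control libraries. For each, LPS replicates 1 and 3 lay above all controls and LPS replicate 2 fell within the control range, so the LPS and control groups overlapped. LPS replicates 1 and 3 lay above all controls for other members too, among them Pecam1, Sox7, Clec14a and Acvrl1. Sox7 had 55.4, 17.2 and 49.3 FPKM in the LPS libraries, and 36.3, 16.4 and 39.8 FPKM in the control libraries. The differences were 0.72 (95% interval -0.34 to 1.78) for Ace, 0.82 (95% interval -0.08 to 1.73) for Prx and 0.81 (95% interval -0.11 to 1.73) for Fibin, with adjusted p of 0.318, 0.199 and 0.21 in limma. Without LPS replicate 2 the calls changed: Fibin, at 1.32 (adjusted p = 0.0301 in limma), and Prx, at 1.29 (adjusted p = 0.0462), passed as higher in LPS, 2 of 40 members, where 1.88% of all genes passed in that direction. Ace was then at 1.30 (adjusted p = 0.0516). Without control replicate 2, the other low library, the differences were 0.69 for Fibin, 0.57 for Prx and 0.41 for Ace, with adjusted p of 0.426, 0.46 and 0.645 in limma. With both low libraries left out Fibin was at 1.20 (adjusted p = 0.0806 in limma), Prx at 1.04 (adjusted p = 0.091) and Ace at 0.99 (adjusted p = 0.0727), so no call was left. The level of Fibin, which has a single exon, stood for 529 reads in LPS replicate 2 and 536 reads in control replicate 2.

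Calcrl and Ramp2 encode the 2 parts of the adrenomedullin receptor, which supports the vessel barrier, and their differences had opposite signs. Calcrl had 181, 342 and 240.5 FPKM in the LPS plus PD libraries, 363, 156 and 253 FPKM in the LPS libraries, and 202, 81.1 and 154 FPKM in the control libraries. LPS replicate 1 was the highest library and control replicate 2 the lowest, and the groups overlapped. Ramp2 had 149, 142 and 141 FPKM in the LPS plus PD libraries, 145, 76.9 and 192 FPKM in the LPS libraries, and 156, 108 and 196 FPKM in the control libraries. Control replicate 3 was the highest and LPS replicate 2 the lowest. The LPS minus control difference was 0.83 (95% interval -0.11 to 1.77) for Calcrl and -0.21 (95% interval -0.97 to 0.55) for Ramp2, both with 0 inside the interval, and the difference between the 2 genes was not tested. With array weights, which weight each library by its spread around the group means, 6 of the 40 genes passed (Cd93, Prx, Fibin, Ace and Calcrl higher, Aplnr lower in LPS), where 20.4% of all genes passed.

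**Figure D3:**
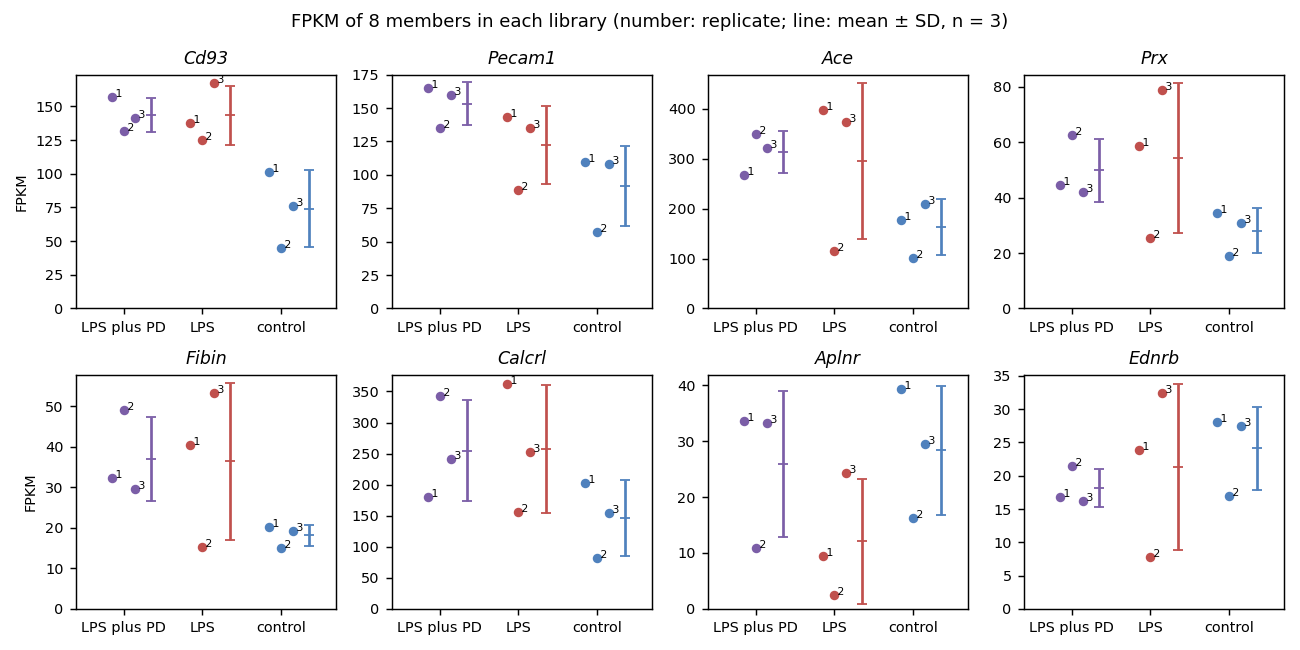
FPKM of members described in the text, by library; points are libraries, with LPS plus PD left of LPS and LPS left of control, numbers give the replicate and lines the mean ± SD (n = 3). For Cd93 the 6 libraries that received LPS lie above the 3 controls, while for Ace, Prx and Fibin LPS replicate 2 lies within the control range.

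The transcription factors of endothelial identity had differences of both signs. Erg had 43.3, 34.4 and 36.3 FPKM in the LPS plus PD libraries, 37.0, 20.1 and 36.4 FPKM in the LPS libraries, and 33.3, 21.1 and 29.8 FPKM in the control libraries, and its groups overlapped between LPS and control. Fli1, which leukocytes also express, had 10.0, 10.2 and 10.0 FPKM in the LPS plus PD libraries, 12.8, 14.8 and 10.4 FPKM in the LPS libraries, and 11.7, 6.54 and 11.2 FPKM in the control libraries. LPS replicate 2 was the highest of the 9 libraries for Fli1 while it was among the lowest for the other factors. Sox17 had 19.6, 28.0 and 48.7 FPKM in the LPS plus PD libraries, 77.2, 7.64 and 50.2 FPKM in the LPS libraries, and 27.9, 19.1 and 34.0 FPKM in the control libraries, and LPS replicates 1 and 3 were the highest and LPS replicate 2 the lowest of all. The differences of LPS from control were 0.12 for Erg, 0.36 for Fli1, 0.32 for Sox7, 0.26 for Sox17, -0.65 for Sox18 and -0.09 for Foxf1. The interval of Sox18, -1.96 to 0.67, was among the widest, with LPS libraries from 40.6 to 241 FPKM.

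BMP and TGF-beta signalling in vessels runs through the receptor Acvrl1, its co-receptor Eng and ligands that include Bmp6. Acvrl1 had 158, 132 and 141 FPKM in the LPS plus PD libraries, 166, 72.5 and 154 FPKM in the LPS libraries, and 124, 69.0 and 118 FPKM in the control libraries, and Eng had 266, 149 and 169.8 FPKM in the LPS plus PD libraries, 156, 138 and 159 FPKM in the LPS libraries, and 159, 97.2 and 146 FPKM in the control libraries. In both, LPS and control libraries overlapped, and control replicate 2 was the lowest library. The LPS minus control differences were 0.29 for Acvrl1, 0.20 for Eng, -0.02 for Tmem100 and -0.09 for Bmp6. Differences of junction and surface genes were 0.44 for the adhesion molecule Pecam1, -0.16 for the junction protein Esam, 0.21 for the lectin-like Clec14a, 0.04 for the guidance receptor Robo4, 0.22 for the phosphatase Ptprb and 0.49 for the sialomucin Emcn. Of the remaining pan-endothelial genes, Nostrin, which binds nitric oxide synthase, was at 0.51, Vwf, the von Willebrand factor, at 0.16, and the membrane protein Tspan7 at 0.09. Those below 0 included Rasip1, needed for vessel lumens, at -0.53, the secreted Egfl7 at -0.40, the scaffold Shank3 at -0.23, the KIT ligand Kitl at -0.18 and Plvap at -0.16. None of these passed the test, and 0 lay inside each of their intervals.

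Among the capillary genes Aplnr, the apelin receptor of general capillary cells, had the lowest difference of the 40. It had 33.6, 10.9 and 33.3 FPKM in the LPS plus PD libraries, 9.46, 2.47 and 24.4 FPKM in the LPS libraries, and 39.3, 16.2 and 29.5 FPKM in the control libraries. LPS replicates 1 and 2 lay below all controls, and LPS replicate 3 lay among them, so the groups overlapped. The LPS minus control difference was -1.51 (95% interval -3.11 to 0.10), with an adjusted p of 0.186 in limma. Without LPS replicate 2 it was -0.77. Apln had 10.6, 19.1 and 13.7 FPKM in the LPS plus PD libraries, 37.3, 8.61 and 18.7 FPKM in the LPS libraries, and 26.1, 9.93 and 16.4 FPKM in the control libraries, with a difference of 0.17. Ednrb, the endothelin receptor of aerocytes, had 16.8, 21.5 and 16.1 FPKM in the LPS plus PD libraries, 23.9, 7.74 and 32.4 FPKM in the LPS libraries, and 28.0, 17.0 and 27.4 FPKM in the control libraries, and its difference was -0.34. Car4 and Gpihbp1, which carries lipoprotein lipase to the vessel lumen, were at -0.06 and -0.25, with overlapping groups. Without LPS replicate 2 the signs turned, with differences of 0.23 for Ednrb, 0.47 for Car4 and 0.59 for Gpihbp1. The median difference of the 5 capillary genes was then 0.47, against -0.25 with it.

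**Figure D4:**
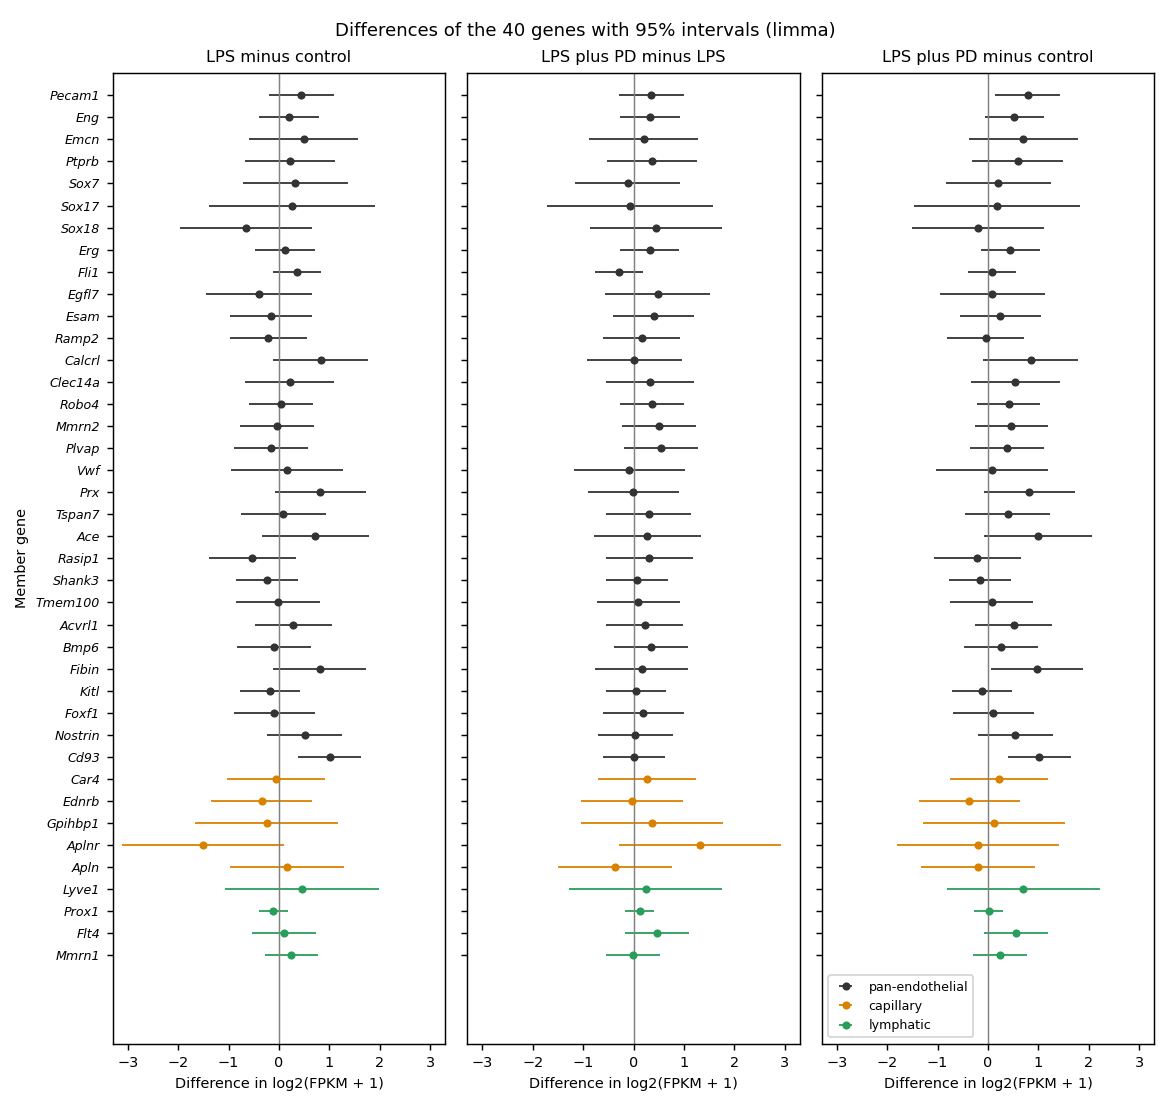
Differences in log2(FPKM + 1) of the 40 genes in the 3 comparisons, with 95% intervals from limma; colour marks pan-endothelial, capillary and lymphatic genes. The intervals of Cd93 lie above 0 in both comparisons with control, while for LPS plus PD minus LPS every interval spans 0.

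Because the level of endothelial RNA differed so much between libraries, the members were also expressed relative to 30 other endothelial genes, among them Cdh5, Kdr, Tie1 and Cldn5, a scaling chosen after seeing the data. On this scale 5 of 40 genes lay with their LPS libraries above the controls (Cd93, Calcrl, Prx, Fibin and Nostrin), where 3.46% of all genes did, and 7 of 40 lay below (Aplnr, Ednrb, Ramp2, Rasip1, Esam, Shank3 and Bmp6), where 24.4% did. Scaled Cd93 was 106, 202 and 131 FPKM in LPS and 98.5, 74.1 and 78.7 FPKM in control libraries. The lowest LPS library thus stood above the highest control. Scaled Ednrb was 18.5, 12.6 and 25.4 FPKM in LPS and 27.2, 27.9 and 28.4 FPKM in control libraries, and scaled Ramp2 was 112, 125 and 150.4 FPKM in LPS and 152, 178 and 204 FPKM in control libraries. In both genes the 3 LPS libraries lay below the 3 controls, which deposited FPKM did not show. The scaling lowered most genes: the median LPS minus control difference of all genes tested was then -0.31, with 25.5% of them above 0. With this scaling 0 of 40 members passed the adjusted test in limma.

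Taken as a mean of 5, the capillary genes stood lower relative to the pan-endothelial genes in libraries that received LPS, but only 1 of the 5 did so by itself in both groups. The mean log2 level of the 5 capillary genes minus that of the 31 pan-endothelial genes, both in log2(FPKM + 1) centred on their means over the 9 libraries, was -0.26, -0.10 and 0.02 in LPS plus PD libraries, 0.05, -0.79 and 0.07 in LPS libraries, and 0.39, 0.31 and 0.32 in control libraries. All 6 LPS-treated libraries lay below all 3 controls, a description with no test, since the genes and the quantity were chosen with results known. The pan-endothelial set was the rest of the list and was not cleared of genes that capillaries express, such as Ace. Against the 30 other endothelial genes the capillary level was -0.22, -0.19 and -0.04 in LPS plus PD, -0.06, -0.84 and 0.15 in LPS, and 0.45, 0.31 and 0.45 in control libraries. The separation of LPS plus PD from control held when any 1 of the 5 genes was left out. That of LPS from control held in 4 of 5 cases and ended without Aplnr, when the LPS libraries were at 0.33, -0.56 and 0.08 and the controls at 0.24, 0.24 and 0.24. Of single genes, Ednrb minus the pan-endothelial level was -0.47, -0.02 and -0.48 in LPS plus PD, -0.004, -0.53 and 0.26 in LPS, and 0.38, 0.49 and 0.38 in control libraries, below control in all 6. Of the other 4, Car4 lay below control in LPS plus PD but not in LPS, and Aplnr in LPS but not in LPS plus PD. The share of all genes below control was not counted relative to the pan-endothelial level. Relative to the 30 other endothelial genes it was 24.4% in LPS and 48.9% in LPS plus PD. Gpihbp1 and Apln overlapped with control in both groups. Gpihbp1 minus the pan-endothelial level, for example, was -0.53, 0.22 and 0.23 in LPS plus PD, 0.53, -1.15 and 0.05 in LPS, and -0.09, 0.29 and 0.46 in control libraries. The lymphatic genes showed no such order: minus the pan-endothelial level they were at 0.48, -0.02 and -0.45 in LPS plus PD, -0.31, 0.72 and -0.40 in LPS, and -0.13, 0.26 and -0.14 in control libraries.

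**Figure D5:**
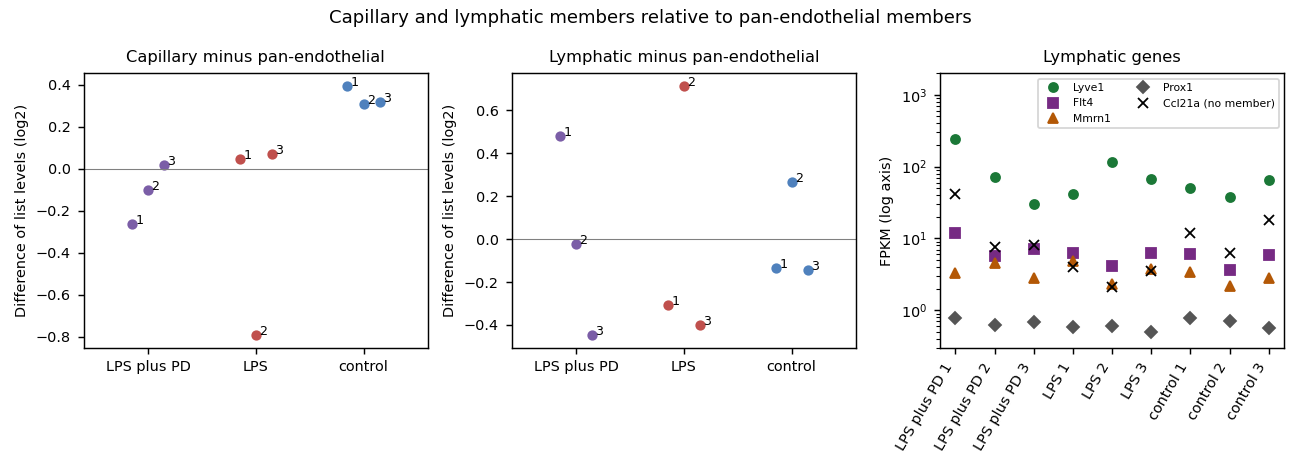
Mean log2 level of the capillary and of the lymphatic genes minus that of the pan-endothelial genes, per library, and on the right FPKM of the lymphatic genes and Ccl21a on a log axis, with LPS plus PD left of LPS and LPS left of control. The capillary points of all 6 LPS-treated libraries (-0.79 to 0.07) lie below the 3 controls (0.31 to 0.39), and the lymphatic points overlap.

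The comparison of LPS plus PD with LPS asks what the inhaled PD changed in LPS-treated lungs. No member passed, 0 of 40 at an adjusted p under 0.05 in limma, and 0% of all genes tested did. At an unadjusted p under 0.05 there were 0 of 40 members, against 4.02% of all genes. The smallest adjusted p of a member was 0.866. Of the 40 differences 32 were above 0 and 8 below, where 56.1% of all genes tested were above 0. The median was 0.23 over the 40 genes, 0.22 over the pan-endothelial, 0.27 over the capillary and 0.18 over the lymphatic genes, beside 0.03 over all genes tested. The capillary and pan-endothelial medians turned sign without LPS replicate 2, at -0.47 over the 5 capillary and -0.13 over the 31 pan-endothelial genes. The lymphatic median was then 0.22, and it was 0.05 without LPS plus PD replicate 1.

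By libraries, 1 of 40 genes lay with its 3 LPS plus PD libraries above the 3 LPS libraries, where 3.99% of all genes did, and 1 of 40 below, where 4.02% did. The first was Prox1, with 0.791, 0.631 and 0.677 FPKM in the LPS plus PD libraries, 0.593, 0.603 and 0.493 FPKM in the LPS libraries, and 0.793, 0.706 and 0.566 FPKM in the control libraries, a level near the minimum for testing. The second was Fli1, whose LPS plus PD libraries lay between 10.0 and 10.2 FPKM and all LPS libraries above them. The differences were 0.12 (95% interval -0.16 to 0.41) for Prox1 and -0.29 (95% interval -0.77 to 0.19) for Fli1. Aplnr had the largest difference in this comparison, 1.31 (95% interval -0.29 to 2.92), with LPS plus PD replicates 1 and 3 above all LPS libraries and LPS plus PD replicate 2 within their range. Without LPS replicate 2 it was 0.57. Plvap had 406, 363 and 225 FPKM in the LPS plus PD libraries, 194, 186 and 299 FPKM in the LPS libraries, and 317.6, 171 and 282 FPKM in the control libraries, with overlapping groups and a difference of 0.54 (95% interval -0.20 to 1.27). Cd93, Calcrl, Prx and Fibin, the members highest in LPS over control, were at 0.01, 0.02, -0.0008 and 0.16 here, with intervals that reached -0.62 to 0.63 for Cd93 and -0.92 to 0.96 for Calcrl. On the scale relative to the 30 other endothelial genes 0 of 40 lay apart in either direction, where 2.42% of all genes lay above and 3.39% below.

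The third comparison sets LPS plus PD against control, and it shares its libraries with the other 2 comparisons. Again 0 of 40 members passed the adjusted test in limma, where 0.789% of all genes did. At an unadjusted p under 0.05 there were 3 members (7.5%), Cd93, Pecam1 and Fibin, against 19.2% of all genes. By libraries, 8 of 40 genes (20%) lay with their LPS plus PD libraries above the 3 controls, where 13.3% of all genes did, and 0 of 40 lay below, where 20.7% did. The 8 were Cd93, Pecam1, Fibin, Ace, Prx, Erg, Acvrl1 and Emcn, all pan-endothelial. The median difference was 0.25 over the 40 genes, 0.39 over the pan-endothelial, -0.20 over the capillary and 0.40 over the lymphatic genes, beside -0.07 over all genes tested. Without control replicate 2 the median was 0.10 over the pan-endothelial, -0.53 over the capillary and 0.24 over the lymphatic genes. The capillary median turned sign without control replicate 1, at 0.10, and without LPS plus PD replicate 2, at 0.03, and was -0.007 without LPS plus PD replicate 1. The lymphatic median was 0.12 without LPS plus PD replicate 1. Relative to the 30 other endothelial genes the pan-endothelial median was -0.082. That scaling takes out any shift shared with the 30 genes, whose own median difference was 0.47 without it. The pan-endothelial median was 0.47 with median-ratio scaling, 0.41 with quantile normalization and 0.56 with equal FPKM totals.

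Pecam1, the adhesion molecule CD31 of endothelial junctions, which platelets and leukocytes also carry, had 165, 135 and 160.1 FPKM in the LPS plus PD libraries, 143, 88.9 and 135 FPKM in the LPS libraries, and 109, 57.3 and 108 FPKM in the control libraries. The lowest LPS plus PD library stood above the highest control, and LPS replicate 2 fell among the controls. Its difference of LPS plus PD from control was 0.79 (95% interval 0.15 to 1.44), 1.67-fold between the means, with an adjusted p of 0.189 in limma. The 10 platelet markers summed to 62.9, 45.3 and 98.4 FPKM in LPS plus PD, 63.0, 39.5 and 103 FPKM in LPS, and 103, 87.5 and 120.5 FPKM in control libraries, and their part in the Pecam1 level was not tested. The difference was 1.01 (95% interval 0.39 to 1.64) for Cd93 (adjusted p = 0.114 in limma), 0.97 (95% interval 0.05 to 1.89) for Fibin (adjusted p = 0.239) and 0.99 (95% interval -0.07 to 2.05) for Ace (adjusted p = 0.289). Emcn had 15.3, 15.3 and 32.2 FPKM in the LPS plus PD libraries, 27.1, 7.34 and 23.4 FPKM in the LPS libraries, and 12.9, 8.26 and 14.97 FPKM in the control libraries. Its LPS plus PD replicates 1 and 2 stood just above control replicate 3, and the interval of its difference, -0.38 to 1.78, held 0.

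Calls in this comparison changed with LPS replicate 2 although that library is in neither group, since all 9 libraries share 1 estimate of the spread. Without it Fibin, at 0.97 (adjusted p = 0.0288 in limma), and Cd93, at 1.01 (adjusted p = 0.0499), passed as higher in LPS plus PD, 2 of 40 members, where 4.67% of all genes passed in that direction. With array weights the same 2 genes passed, where 9.66% of all genes did. With only the 6 libraries of these groups Fibin passed, 1 of 40, where 3.85% of all genes passed as higher. Without control replicate 2 the difference was 0.70 for Cd93 (adjusted p = 0.317 in limma), 0.85 for Fibin (adjusted p = 0.56) and 0.49 for Pecam1.

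Relative to the 30 other endothelial genes, 4 of 40 lay above control in LPS plus PD (Cd93, Pecam1, Prx and Ace), where 4.17% of all genes did. A further 11 of 40 lay below (Ednrb, Car4, Ramp2, Esam, Rasip1, Shank3, Kitl, Tmem100, Foxf1, Sox18 and Fli1), where 48.9% of all genes did. Scaled Pecam1 was 143, 116 and 133 FPKM in LPS plus PD and 106, 94.2 and 112 FPKM in control libraries, and scaled Ednrb was 14.6, 18.4 and 13.4 FPKM in LPS plus PD and 27.2, 27.9 and 28.4 FPKM in control libraries. The groups were apart for both genes, in opposite directions. Under 1 of the 22 alternatives Ednrb passed the adjusted test in limma, with this scaling and without LPS replicate 2 and control replicate 2, at -0.82 (adjusted p = 0.0355), 1 of 40, where 9.39% of all genes passed as lower. In deposited FPKM its difference of LPS plus PD from control was -0.37 (95% interval -1.37 to 0.63), with LPS plus PD libraries from 16.1 to 21.5 FPKM and controls from 17.0 to 28.0 FPKM.

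Of the lymphatic genes, Lyve1 and Flt4 spread most within the LPS plus PD group, with SDs of 113 FPKM for Lyve1 and 3.32 FPKM for Flt4 (n = 3). Lyve1 had 245, 72.7 and 30.4 FPKM in the LPS plus PD libraries, 42.0, 117 and 66.4 FPKM in the LPS libraries, and 50.6, 38.1 and 64.9 FPKM in the control libraries. LPS plus PD replicate 1 was the highest library and LPS plus PD replicate 3 the lowest, so the group spanned all others. Flt4 had 12.0, 5.71 and 7.19 FPKM in the LPS plus PD libraries, 6.32, 4.14 and 6.31 FPKM in the LPS libraries, and 6.13, 3.596 and 5.86 FPKM in the control libraries, with LPS plus PD replicate 1 again the highest. Mmrn1 did not follow, with 3.25, 4.51 and 2.82 FPKM in the LPS plus PD libraries, 4.80, 2.34 and 3.72 FPKM in the LPS libraries, and 3.46, 2.20 and 2.83 FPKM in the control libraries. The differences of LPS plus PD from LPS were 0.24 (95% interval -1.28 to 1.77) for Lyve1, 0.46 (95% interval -0.17 to 1.10) for Flt4 and -0.01 (95% interval -0.54 to 0.52) for Mmrn1. Those of LPS from control were 0.46, 0.10 and 0.25 for the same genes, and -0.11 for Prox1. Lyve1 is also made by some tissue macrophages. The 10 macrophage markers summed to 421, 568 and 656 FPKM in LPS plus PD, 211, 640.2 and 373 FPKM in LPS, and 199, 201 and 226 FPKM in control libraries. Of the 9 that were tested, 7 lay above control without overlap in LPS plus PD and 5 in LPS, and 0 lay below in either. Among all genes tested, 13.3% lay above and 20.7% below control in LPS plus PD, and 13.8% and 23.8% in LPS. Of the 10 macrophage markers, C1qa was at 31.1 to 72.7 FPKM and Marco at 4.44 to 50.9 FPKM, while Folr2, not tested, was at or below 0.562 FPKM. Mrc1 was at 4.84 to 15.4 FPKM and Cd163 at 0.421 to 1.96 FPKM, both with overlapping groups. The part of macrophages in the Lyve1 level was not tested. The lymphatic chemokine Ccl21a, no member, had 41.6, 7.72 and 8.16 FPKM in the LPS plus PD libraries, 4.02, 2.12 and 3.48 FPKM in the LPS libraries, and 11.8, 6.34 and 18.3 FPKM in the control libraries. LPS plus PD replicate 1 was its highest library too, and all LPS libraries lay below the others. Its difference of LPS plus PD from LPS, 1.87, had an unadjusted p of 0.0127 and an adjusted p of 0.866 in limma. Of the 8 other lymphatic genes listed, 6 were tested, and 1 (16.7%) passed in LPS against control, where 3.78% of all genes did. That was Pdpn, at 1.01 (adjusted p = 0.0433 in limma), which alveolar type 1 cells also express. Its adjusted p was 0.0533 to 0.141 when each of the 9 libraries was left out in turn, so the call was lost each time, and 0.0924 with the replicate block.

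The 30 other endothelial genes, none of them a member, were counted in the same way. In LPS against control 1 of 30 (3.33%) passed the adjusted test, where 3.78% of all genes did: S1pr1, the sphingosine-1-phosphate receptor that tightens vessel junctions, had 126, 140.4 and 104 FPKM in the LPS plus PD libraries, 119, 132 and 93.4 FPKM in the LPS libraries, and 61.1, 36.7 and 59.9 FPKM in the control libraries. All 6 LPS-treated libraries lay above the controls, LPS replicate 2 included, and the LPS minus control difference was 1.13 (95% interval 0.60 to 1.66, adjusted p = 0.0428 in limma). The call was lost when any 1 library other than LPS replicate 3 was left out, with adjusted p of 0.0399 to 0.152 over the 9 such fits, and with the replicate block, at an adjusted p of 0.0924. At an unadjusted p under 0.05 there were 10 of 30 (33.3%), near the 29.9% of all genes. Counted by libraries, 8 of 30 (26.7%) lay with their LPS libraries above the controls, where 13.8% of all genes did. Below the controls lay 1 of 30 (3.33%), where 23.8% of all genes did. Adgrl4, an adhesion receptor of endothelium, had 48.3, 49.5 and 46.6 FPKM in the LPS plus PD libraries, 52.8, 34.1 and 47.2 FPKM in the LPS libraries, and 28.0, 11.5 and 22.8 FPKM in the control libraries, with all LPS libraries above the controls and an adjusted p of 0.0612 in limma. Nos3, the endothelial nitric oxide synthase, had 4.29, 4.31 and 4.46 FPKM in the LPS plus PD libraries, 5.001, 2.69 and 6.83 FPKM in the LPS libraries, and 7.17, 6.43 and 10.0 FPKM in the control libraries. Its LPS and control libraries overlapped, and the LPS minus control difference was -0.65 (adjusted p = 0.143 in limma). Its 3 LPS plus PD libraries all lay below the 3 controls, with a difference of -0.71 (adjusted p = 0.201 in limma). In LPS plus PD against LPS 0 of 30 passed, and 0 of 30 had an unadjusted p under 0.05. In LPS plus PD against control 0 of 30 passed, where 0.789% of all genes did, and 11 of 30 (36.7%) had an unadjusted p under 0.05, against 19.2% of all genes, with S1pr1 at 1.24 (adjusted p = 0.0565 in limma). The LPS plus PD libraries lay above the controls for 12 of 30 (40%), where 13.3% of all genes did. They lay below for 1 of 30 (3.33%), where 20.7% of all genes did. The median differences of the 30 genes were 0.19 for LPS minus control, 0.16 for LPS plus PD minus LPS and 0.47 for LPS plus PD minus control.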

How the data were processed

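RNA-seq of 9 mouse lung libraries was used. The values are FPKM per gene as deposited by the authors in 1 table (32114 genes). The submitters' processing notes name HISAT2, StringTie, FastQC and bcl2fastq and the GRCm38 build. Their settings and versions, and the strandedness, are not given in sources used here, so reads of antisense partners cannot be told apart. Columns were joined to samples by name.

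Genes with a mean of at least 0.5 FPKM were tested as log2(FPKM + 1) in limma 3.58.1 (R 4.3.3), with 1 mean per group over all 9 libraries, a variance trend and Benjamini-Hochberg adjustment at 0.05. A pseudocount of 1 understates the change of low genes. The fit was tried on simulated data with independent noise for each gene, without the shifts of whole libraries seen here. Depth came from single-exon genes, whose values were whole reads within 0.05 for 98.3% to 99.8%. List levels are means of log2(FPKM + 1), and the scaling to 30 endothelial genes used their mean log2(FPKM + 0.1). Alternatives were another pseudocount, filters, scalings, weights, a replicate block and leaving out libraries. Named were all 40 members. Members and lists were chosen with earlier results of these data known. Figures were drawn with matplotlib 3.10.9 and tables with pandas 2.3.3 in Python 3.11.15.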

Additional observations from a re-analysis of the deposited data

How the results depend on the processing

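Under 22 alternatives no member changed sign after passing the test, because none passed in the fit reported. Of 2634 member values, 289 that were not called changed sign, 14 passed the test and the rest kept sign and side. For LPS against control the count of members past the threshold was 6 with array weights and 0 to 2 when each library was left out in turn. For LPS plus PD against control it was 1 with only the 6 libraries compared, 2 with array weights, 0 to 2 when each library was left out, and 1 (Ednrb) with the scaling to 30 other endothelial genes and both LPS replicate 2 and control replicate 2 left out. For LPS plus PD against LPS it was 0 under all 22. Some of the moves in median differences are given here. The capillary median of LPS minus control lay between -0.58 and 0.47 when each library was left out. It was 0.12 with array weights and 0.20 without LPS replicate 2 and control replicate 2. That of LPS plus PD minus control was -0.64 with the scaling to other endothelial genes, and -0.74 with both libraries left out as well. That of LPS plus PD minus LPS was -0.45 with array weights, between -0.47 and 0.66 when each library was left out, and -0.47 without LPS replicate 2 and control replicate 2. With the scaling to other endothelial genes the LPS plus PD minus control median was -0.082 for pan-endothelial and 0.019 for lymphatic genes; with both libraries left out as well it was -0.13 and 0.042, and the lymphatic median of LPS minus control was -0.24. The cause was not tested. Median-ratio scaling moved the median of all genes in LPS minus control to 0.00, against -0.11, and the scaling to endothelial genes to -0.31. The number of all genes past the threshold in LPS against control, 613 as reported, was 38 with no filter, 9 with only 6 libraries and 3308 with array weights. Of the 613 calls 200 were higher in LPS, against 160 of 370 with median-ratio scaling, 204 of 392 with equal FPKM totals and 54 of 461 with the scaling to endothelial genes.

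Over 9 same-numbered pairs the correlation of deviations from the group means was -0.18 to 0.19, with 1 pair over 0.1. With 3 libraries a group these values cannot decide whether the replicate numbers pair the samples. With the replicate number as a block 0 members passed in each comparison, and 10, 0 and 4 of all genes passed, against 613, 0 and 128 without it. With 3 libraries a group, differences under about 0.83 were within the median interval of a member.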
